A study of Homo sapiens with 4 samples.

Results

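SOX11, SOX4 and SOX12 form the SOXC group of the SOX transcription factors. They were followed here through every probe set (a group of short probes that together measure a stretch of transcript) to which the platform annotation gives exactly 1 gene symbol equal to 1 of these names. These 3 of 19775 measured genes held 11 of the 54675 probe sets in the table, with 3 for SOX11, 6 for SOX4 and 2 for SOX12. All 4 samples were Z138, an established human line of mantle cell lymphoma (a mature B-cell cancer), and all 4 carried a stably integrated lentiviral short hairpin RNA. The shSOX11 samples held hairpins against SOX11 (constructs shSOX11.1 and shSOX11.3), and the shControl samples held scrambled hairpins (shControl.1 and shControl.2). There was 1 Affymetrix U133 Plus array of total RNA for each construct. The design text calls the lines stable clones, and nothing in the labels gives separate cultures of a construct, so p-values reflect the spread among these samples alone, which may be technical, and construct and sample cannot be told apart.

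SOX proteins bind the minor groove of DNA through a high-mobility-group domain and bend it, often beside a partner factor such as a POU protein. The SOXC members share a nearly identical DNA-binding domain and a conserved activation domain at the carboxyl end, and they act together in the embryonic nervous system, heart and skeleton of the mouse. In the B lineage SOX4 is needed for early B-cell development in the mouse. SOX11 is not normally expressed in B cells and is characteristic of most mantle cell lymphomas. SOX12 is broadly expressed at low levels and is the weakest activator of the group in reporter assays.

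Signals were on a common scale, with equal trimmed means on the 4 arrays. Median signals were 24.3 with shSOX11.1 and 23.9 with shSOX11.3, against 25.7 on shControl.1 and 25.3 on shControl.2. The B-cell marker MS4A1 read 6823 and 7426 on the shSOX11 arrays and 8358 and 7778 on the shControl arrays at its brightest probe set. The log2 change there was -0.18 (SE 0.14). Its other probe sets past the filter lay at 0.57 (SE 0.26), 0.49 (SE 0.28) and -0.19 (SE 0.22). CCND1, the cyclin gene activated by translocation in mantle cell lymphoma, read 9753 and 8610 on the shSOX11 arrays and 9760 and 10317 on the shControl arrays. The summed signal of 6 B-cell markers was 8399 and 9913 on the shSOX11 arrays and 11541 and 10936 on the shControl arrays, of which MS4A1 made up the most. The list's median log2 change was -0.49. At an unadjusted limma p under 0.05, 3 of the 6 were lower, as were 4.66% of the 11938 genes tested. These were CD79B at -0.68 (SE 0.17), CD22 at -2.02 (SE 0.88) and PAX5 at -0.86 (SE 0.32). Their limma adjusted p ranged from 0.443 to 0.603. CD22 read 39.8 with shSOX11.1 and 4.94 with shSOX11.3, against 48.2 on shControl.1 and 67.0 on shControl.2. The size of its change thus rests mostly on the dim reading of shSOX11.3. CD79A at -0.30 (SE 0.21) and BLK at 0.18 (SE 0.33) had overlapping groups. Of 6 T and NK cell markers, 3 passed the filter (CD3G, CD2 and CD247) and CD3D, CD3E and NKG7 did not. Their summed signal ranged from 279 to 314 on the shSOX11 arrays and from 374 to 395 on the shControl arrays. The summed signal of the myeloid markers ranged from 50.9 to 63.4 on the shSOX11 arrays and from 45.4 to 56.8 on the shControl arrays. That of the erythroid markers ranged from 55.8 to 68.5 and from 49.1 to 87.9. The epithelial and stromal sum was higher, at 1080 and 894 on the shSOX11 arrays and 1085 and 1047 on the shControl arrays. Most of it was COL1A1, at 1047 and 881 on the shSOX11 arrays and 1063 and 1012 on the shControl arrays. The ratio of 3′ to 5′ beta-actin control signal, which reflects how complete the labelled RNA was, was 7.29 and 5.31 on the shSOX11 arrays and 11.6 on each shControl array. The same ratio for the GAPDH control was 1.01 and 1.03 on the shSOX11 arrays and 0.978 and 1.06 on the shControl arrays. The B-cell sum (each gene at its brightest probe set), the T and NK cell sum and the actin ratio separated the groups. The GAPDH ratio did not. The part of these measures in the values below was not tested.

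The targeted gene comes first, since it checks the labels. Each of its 3 probe sets read lower with either hairpin against SOX11 than with either scrambled one, as did 21.8% of the 28202 probe sets tested, and SOX11 stood at 36.01% to 45.4% of the control level. The 95% intervals of the 3 changes ran from 25.1% of control at their lower end to 64.002% at their upper end. In an RNA pool of many cells, fewer cells with SOX11 RNA and less SOX11 RNA in each cell cannot be told apart.

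The brightest SOX11 probe set, 204914_s_at, read 335 with shSOX11.1 and 339 with shSOX11.3, against 797 on shControl.1 and 787 on shControl.2. The constructs of each group lay close together and the groups were far apart. The log2 means were 8.40 ± 0.01 in shSOX11 and 9.63 ± 0.01 in shControl cells (SD, n = 2 each). The log2 change, shSOX11 minus shControl, was -1.23 with a standard error of 0.16 and a 95% interval from -1.60 to -0.86, which is 2.35-fold lower.

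The other SOX11 probe sets showed the same separation with more spread between the hairpins. Probe set 204915_s_at read 203 with shSOX11.1 and 135 with shSOX11.3, against 439 on shControl.1 and 482 on shControl.2. Its log2 change was -1.47 (SE 0.23, 95% interval -1.995 to -0.95), or 2.78-fold lower. Here construct 3 was the lower hairpin sample. Probe set 204913_s_at read 121 with shSOX11.1 and 164 with shSOX11.3, against 296 on shControl.1 and 327 on shControl.2. Its log2 change was -1.14 (SE 0.22, 95% interval -1.64 to -0.64), or 2.20-fold lower. Here construct 1 was the lower hairpin sample. All 3 intervals overlapped. All 3 names end in _s_at, the Affymetrix mark for probe sets that can match more than 1 transcript.

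Among the 28202 probe sets tested, 1 passed limma's adjusted p of 0.05 (0.00355%), and none of the 3 SOX11 probe sets did. Their limma p-values were 4.2e-05, 0.00014 and 0.00061 unadjusted, in the order 204914_s_at, 204915_s_at and 204913_s_at. Adjusted over the whole table by the Benjamini-Hochberg method, the limma values were 0.206, 0.289 and 0.348. By p-value the 3 probe sets stood at ranks 5, 13 and 47. By size of decrease they stood at ranks 510, 328 and 614. All 3 were at least 1.5-fold lower on every pair of a shSOX11 and a shControl array, as were 1.87% of all probe sets tested. Leaving out shSOX11.1 took the limma adjusted p of 204914_s_at to 0.00585, and leaving out shSOX11.3 took it to 0.00682. Leaving out shControl.1 took it to 0.9997, and leaving out shControl.2 took it to 0.995. The lone array of a group then has no spread of its own, and the estimate of -1.24 to -1.23 barely moved.

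**Figure D1:**
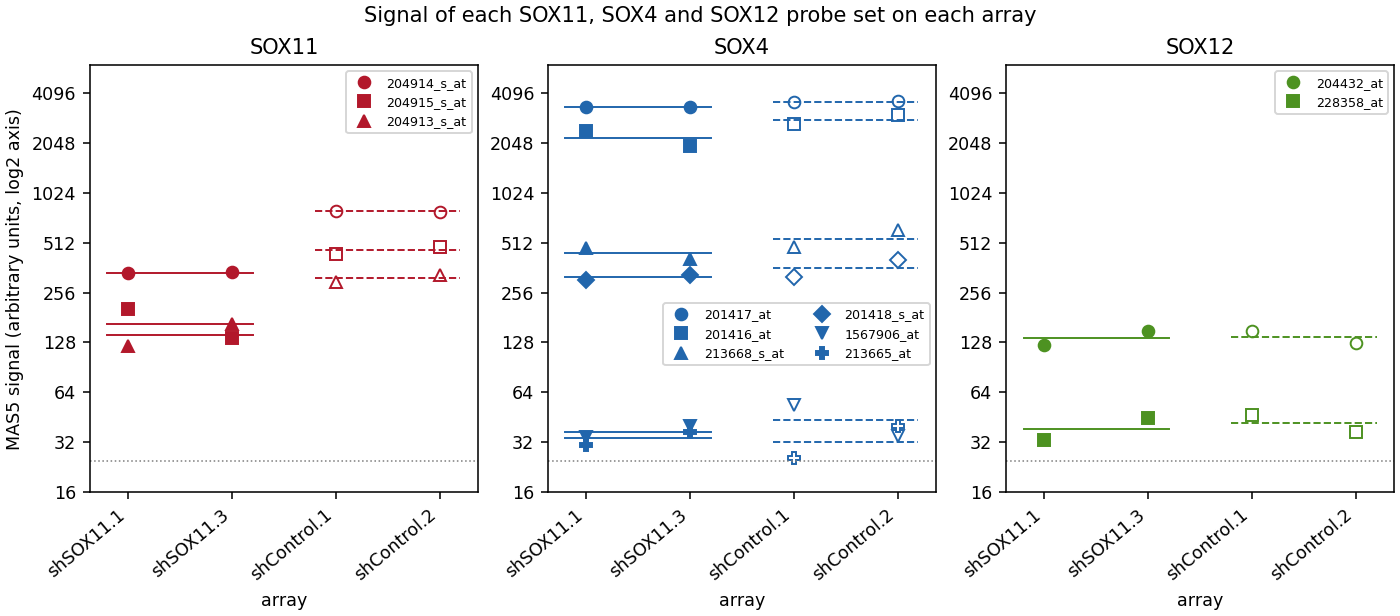
MAS5 signal (log2 axis) of each probe set on each array, with filled points for shSOX11 and open points for shControl arrays; solid and dashed lines are the means of log2 signal of shSOX11 and shControl, and the dotted line is the signal threshold of 24.8. All SOX11 points of shSOX11 arrays lie below the shControl points of the same probe set, while SOX12 points overlap; heights of different probe sets are not comparable.

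The 2 hairpins against SOX11 were set side by side. Averaged over the 3 probe sets on the log2 scale, SOX11 stood at 41.7% of the control mean with shSOX11.1 and at 40.5% with shSOX11.3. The order of the hairpins depended on the probe set. At 204914_s_at construct 1 was at 42.3% and construct 3 at 42.8% of control. At 204915_s_at construct 1 was at 44.1% and construct 3 at 29.4%. At 204913_s_at construct 1 was at 39.0% and construct 3 at 52.8%. The log2 difference of shSOX11.3 minus shSOX11.1 was thus 0.02, -0.58 and 0.44 at the 3 probe sets, and that of shControl.2 minus shControl.1 was -0.02, 0.13 and 0.14. Over all probe sets tested, the log2 differences between the hairpins against SOX11 had a median absolute deviation of 0.329, and those between the scrambled hairpins one of 0.213. With 1 array a construct, a difference between the hairpins has no test, and no ranking of the hairpins came out of these probe sets.

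**Figure D2:**
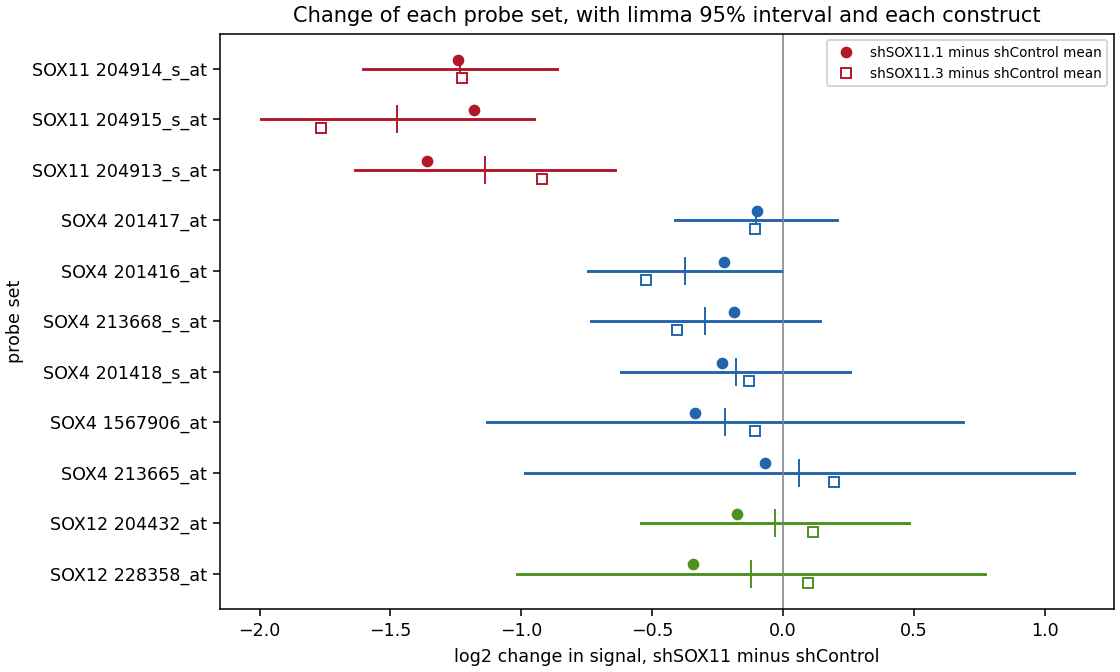
Log2 change of each probe set, shSOX11 minus shControl (vertical ticks), with limma's 95% interval (lines) and each construct against the shControl mean (filled circles for shSOX11.1, open squares for shSOX11.3). The intervals of the 3 SOX11 probe sets lie between -1.995 and -0.64; those of SOX12 include 0, as do those of SOX4 other than 201416_at.

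SOX4, whose DNA-binding domain is nearly the same as that of SOX11, had the most probe sets of the group. None of its 6 probe sets passed the test once p-values were adjusted over the table, with limma adjusted p between 0.603 and 0.978. Of the 6, 5 were lower and 1 was higher on the shSOX11 arrays, with a median log2 change of -0.20, where the median over all probe sets tested was -0.03 and 53.3% were lower. All 6 were above the signal threshold on all 4 arrays.

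The brightest SOX4 probe set, 201417_at, read 3375 with shSOX11.1 and 3351 with shSOX11.3, against 3590 on shControl.1 and 3635 on shControl.2. The arrays of each group lay close together and the groups did not overlap, at a small distance. The log2 means were 11.72 ± 0.01 in shSOX11 and 11.82 ± 0.01 in shControl cells (SD, n = 2 each). The log2 change was -0.10 (SE 0.14), with a 95% interval from -0.41 to 0.21, that is, from 75.1% to 115% of the control level. The interval does not reach the 42.5% seen at the brightest SOX11 probe set.

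Probe set 201416_at showed the largest SOX4 decrease, at 2408 with shSOX11.1 and 1961 with shSOX11.3, against 2636 on shControl.1 and 3013 on shControl.2. Its log2 change was -0.38 (SE 0.16, 95% interval -0.75 to -0.004), with an unadjusted limma p of 0.048 and an adjusted limma p of 0.603. An unadjusted p under 0.05 with a lower signal was met by 3.76% of all probe sets tested. Construct 3 was further from control, at 69.6%, than construct 1, at 85.4%. Leaving out shSOX11.1 took the log2 change to -0.52 and the limma adjusted p to 0.0349, and leaving out any other array left the adjusted p above 0.05. Without shSOX11.1, when that group holds 1 array, 1585 of the 28202 probe sets passed the adjusted threshold.

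Probe set 213668_s_at read 475 with shSOX11.1 and 409 with shSOX11.3, against 479 on shControl.1 and 611 on shControl.2, a log2 change of -0.30 (SE 0.19). The groups were separated here only by the small gap between shSOX11.1 and shControl.1. Non-overlapping groups with lower signal in shSOX11 cells were thus seen at 3 of the 6 SOX4 probe sets, where 21.8% of all probe sets tested had them. The 3 share a transcript and are not independent measurements of it. At the remaining SOX4 probe sets the groups overlapped. Probe set 201418_s_at read 305 and 327 on the shSOX11 arrays and 320 and 401 on the shControl arrays, a log2 change of -0.18 (SE 0.19). The dim probe sets 1567906_at and 213665_at had log2 changes of -0.22 (SE 0.40) and 0.06 (SE 0.46). Readings of these 2 stayed between 30.9 and 40.3 on the shSOX11 arrays and between 26.0 and 53.6 on the shControl arrays.

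SOX12, the third SOXC gene, gave overlapping groups at each of its 2 probe sets. Probe set 204432_at read 123 with shSOX11.1 and 150 with shSOX11.3, against 151 on shControl.1 and 127.8 on shControl.2. The hairpin samples thus spanned nearly the same range as the scrambled ones. Its log2 means were 7.09 ± 0.20 in shSOX11 and 7.12 ± 0.17 in shControl cells (SD, n = 2 each). The log2 change was -0.03 (SE 0.22), with a 95% interval from -0.54 to 0.48, that is, from 68.7% to 139% of control, and it turned to 0.05 with each array centred on its median. The dimmer probe set 228358_at read 32.9 and 44.7 on the shSOX11 arrays and 47.1 and 37.1 on the shControl arrays. Its log2 change was -0.12 (SE 0.39), and its interval from 49.4% to 171% of control leaves a wider range of changes undetectable. Limma adjusted p was 0.977 and 0.944 at the 2 probe sets. On shSOX11.1 both were below the shControl mean, at 88.6% and 78.8%, and on shSOX11.3 both were above it, at 108% and 107%. The log2 differences of shSOX11.3 minus shSOX11.1 were 0.29 and 0.44, and those of shControl.2 minus shControl.1 were -0.24 and -0.34.

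**Figure D3:**
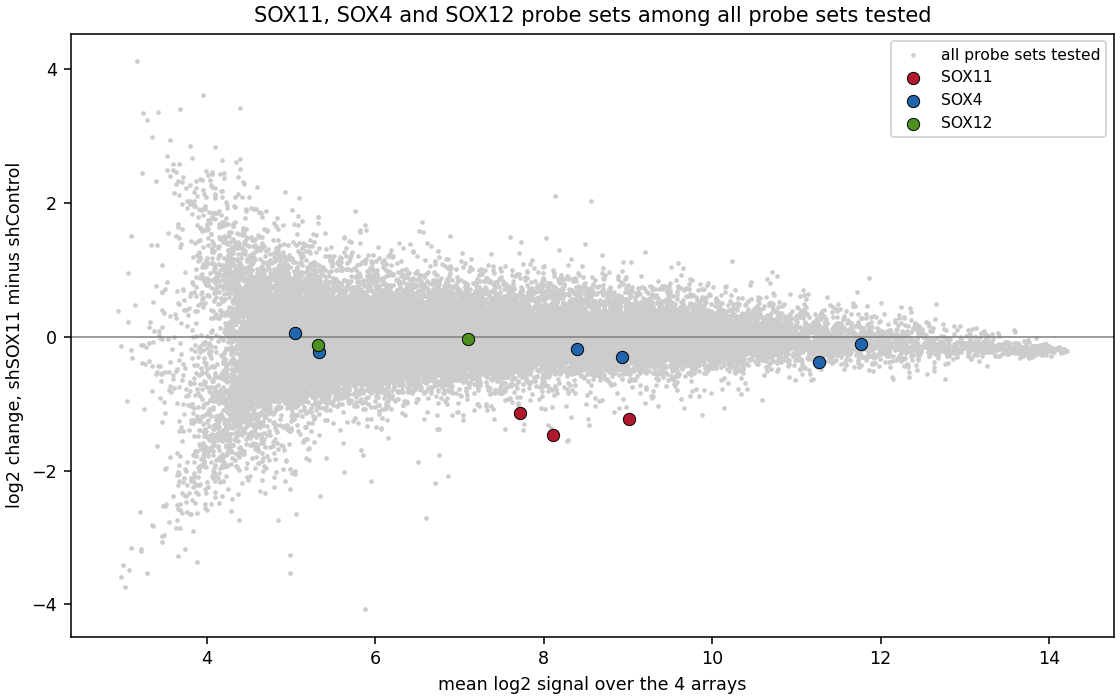
Log2 change (shSOX11 minus shControl) against mean log2 signal over the 4 arrays for the 28202 probe sets tested (grey), with SOX11 in red, SOX4 in blue and SOX12 in green. The SOX11 points, from -1.47 to -1.14, lie at the lower edge of the cloud at their signal, and the SOX4 and SOX12 points, from -0.38 to 0.06, lie inside it.

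A difference between genes within an array does not depend on the scaling of that array, so the change of SOX11 was also set against that of its relatives in this way. The log2 signal of SOX11 minus that of SOX4, at their brightest probe sets, was -3.33 with shSOX11.1 and -3.31 with shSOX11.3, against -2.17 on shControl.1 and -2.21 on shControl.2. Only the shift between the groups can be read from these values, since different probe sets do not share a scale of level. That shift was -1.13, with SDs of 0.02 in each group (n = 2 each). For SOX11 minus SOX12 the values were 1.45 and 1.17 on the shSOX11 arrays and 2.40 and 2.62 on the shControl arrays, a shift of -1.20. Both shifts separated the groups on every pair of arrays. The two-sided exact permutation p was 0.33 in both cases (n = 2 each), which is the smallest value that 2 arrays against 2 allow, so this test cannot reach 0.05.

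Upstream sequences of SOX4 and SOX12 were searched for the letters that SOX and POU proteins favour, to show which of these letters stand beside these genes. The windows are from the RefSeq promoter table (GRCh38.p14, plus strand), with SOX4 at chr6:21593631-21593750 and SOX12 at chr20:325332-325401, and capitals mark the motifs found. The first ends at the base before the annotated start of SOX4, and the second runs from 220 to 151 bases before the start of SOX12.
SOX4: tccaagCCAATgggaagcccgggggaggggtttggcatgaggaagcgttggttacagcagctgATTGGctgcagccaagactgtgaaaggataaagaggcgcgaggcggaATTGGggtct
SOX12: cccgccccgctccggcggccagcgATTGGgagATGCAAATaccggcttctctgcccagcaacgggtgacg
The SOX core letters (AACAAT, or ATTGTT on the other strand) were in neither of the 250-base upstream windows, and 8.98% of 35116 such windows in the table held them. The POU octamer (ATGCAAAT, or ATTTGCAT on the other strand) was found in SOX12, from 188 to 181 bases before the start, as in 1.63% of windows. The CCAAT box (CCAAT, or ATTGG on the other strand), bound by the factor NF-Y, occurred 4 times in SOX4 and 1 time in SOX12, and 32.01% of windows held at least 1. The SOX4 match from 181 to 177 bases before the start lies outside the stretch printed. No matches overlapped each other. A match is a run of letters and not a measured binding site.

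Other members of the SOX family mostly stayed under the signal filter in these cells. Of 16 further SOX genes on the array, 5 had a probe set past the filter (above 24.8, the median of all signals, on at least 2 arrays), namely SOX2, SOX5, SOX6, SOX7 and SOX15. None of the 5 had an unadjusted limma p under 0.05, which 7.71% of the 11938 genes had at their brightest probe set. The 3 with the smallest p were SOX2, a pluripotency and neural progenitor factor, SOX5, a SOXD protein without an activation domain, and SOX15, the SOXG member. SOX2 read 16.3 and 15.4 on the shSOX11 arrays and 24.9 and 29.2 on the shControl arrays. It was thus below threshold with either hairpin against SOX11 and passed the filter through the shControl arrays alone, which fixes its direction. By mean signal it was at least 1.08-fold lower, a bound that takes no account of error. Its unadjusted limma p was 0.279. SOX5 had a log2 change of -0.84 (SE 0.87) with overlapping groups. SOX15 read 43.3 and 62.0 on the shSOX11 arrays and 42.4 and 40.3 on the shControl arrays, a log2 change of 0.33 (SE 0.36), and its groups were separated only by the small gap between shSOX11.1 and shControl.1.

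POU proteins are the best known partners of SOX proteins on DNA. Of 15 listed genes of POU factors and their coactivator, 12 had a probe set with a single symbol and 3 passed the filter (POU2F2, POU2AF1 and POU3F3). POU2F2 is the octamer-binding factor of B cells. Its brightest probe set read 63.6 and 102 on the shSOX11 arrays and 87.1 and 118 on the shControl arrays, which overlap. Its other probe sets past the filter lay at -0.93 (SE 0.25), -0.16 (SE 0.30) and -0.15 (SE 0.35). The probe set at -0.93 had groups apart, with 52.9 and 59.1 on the shSOX11 arrays and 109 and 104 on the shControl arrays. At those of -0.16 and -0.15 the groups overlapped. POU2AF1, the B-cell coactivator of POU2F2, read 2526 and 2577 on the shSOX11 arrays and 3565 and 3574 on the shControl arrays. Its log2 change was -0.48 (SE 0.14), with a limma adjusted p of 0.476. The groups were well apart there and the arrays within each group close. POU3F3, of the POU class that pairs with SOXC proteins in neural cells, had a log2 change of -0.24 (SE 0.26). The other POU3F3 probe set that passed was under the threshold on both shControl arrays and at least 1.14-fold higher by mean signal. It passed the filter through the shSOX11 arrays alone, which fixes its direction, and the bound takes no account of error.

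Genes that the literature links to SOXC factors were listed with earlier results of these arrays known, so their count is no independent evidence of direction. Of 22 listed, 17 were tested, 12 were lower and 5 higher, with a median log2 change of -0.44 against -0.06 over all 11938 genes. At an unadjusted limma p under 0.05 were 7, all lower, as were 4.66% of all genes tested. None passed the adjusted threshold, with a smallest limma adjusted p of 0.206. These counts take each gene at its brightest probe set. CXCR4 was lower there, at -0.22 (SE 0.14). Its other probe sets past the filter went the other way, at 0.59 (SE 0.15) and 0.81 (SE 0.16).

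The list holds cytoskeletal and progenitor genes beside genes of the B lineage and the tumour. MARCKSL1, an actin-binding relative of MARCKS, read 600 and 757 on the shSOX11 arrays and 1202 and 1283 on the shControl arrays, a log2 change of -0.88 (SE 0.17). STMN1, which destabilises microtubules, read 1835 and 2443 on the shSOX11 arrays and 3084 and 2860 on the shControl arrays, a log2 change of -0.49 (SE 0.17). Its second probe set was dim, at 31.7 and 26.0 on the shSOX11 arrays and 18.7 and 26.7 on the shControl arrays. The groups overlapped there, with a log2 change of 0.36 (SE 0.56). DBN1, the actin-binding drebrin, had a log2 change of -0.44 (SE 0.19). TUBB3, the neuronal tubulin activated by SOX4 and SOX11 in the chick neural tube, read 2220 and 1617 on the shSOX11 arrays and 2299 and 2271 on the shControl arrays. Its log2 change was -0.27 (SE 0.18), with a limma adjusted p of 0.692. The other TUBB3 probe set past the filter was at -0.18 (SE 0.18). Both names end in _x_at, which Affymetrix marks for possible cross-hybridization, so the signal may not be that of TUBB3 alone. TEAD2, a mouse SOXC target in progenitor cells, and DCX, a neuronal microtubule protein, did not pass the filter.

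Of the B-lineage and tumour genes, CD24 had the largest log2 change, at -2.71 (SE 0.32), with 27.2 and 52.5 on the shSOX11 arrays and 258 and 239 on the shControl arrays, at a probe set of the _x_at kind, which Affymetrix marks for possible cross-hybridization. The other 4 CD24 probe sets past the filter were under the threshold with either hairpin against SOX11 and at least 3.74-fold to 9.69-fold lower by mean signal. These 4 passed the filter through the shControl arrays alone. PDGFA, a growth factor for stromal and vascular cells, had a log2 change of -1.06 (SE 0.20) at its brightest probe set. The other PDGFA probe set past the filter was at -0.50 (SE 0.23). PAX5, the B-cell identity factor, read 646 with construct 1 and 1450 with construct 3, against 1845 and 1666 on the shControl arrays, a gap between the hairpins that has no test. HILPDA, a lipid droplet protein induced by hypoxia, had a log2 change of -0.50 (SE 0.19). BCL6 and PRDM1, opposing regulators of the germinal centre and the plasma cell, had overlapping groups and log2 changes of 0.02 (SE 0.37) and 0.11 (SE 0.22). Their other probe sets past the filter lay at -0.36 for BCL6 and at 0.52 and -0.46 for PRDM1. EZH2, a histone methyltransferase under SOX4 control in mouse mammary cells, had a log2 change of -0.34 (SE 0.18, limma adjusted p = 0.633).

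Reported regulators of SOX11 or SOX4 levels formed the last list. Of 15, 14 were tested, 6 were lower and 8 higher, with a median log2 change of 0.08. At an unadjusted limma p under 0.05 was 1 of them, SMAD4, the common mediator of TGF-beta signals, which was higher, as were 3.06% of all genes tested. It read 449 and 743 on the shSOX11 arrays and 382 and 407 on the shControl arrays (log2 change 0.55, SE 0.24, limma adjusted p = 0.603), and its other probe sets past the filter lay between 0.06 and 0.25. STAT3, which represses SOX11 in mantle cell lymphoma, had a log2 change of 0.14 (SE 0.25) with overlapping groups. CCND1 was at -0.13 (SE 0.14).

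**Figure D4:**
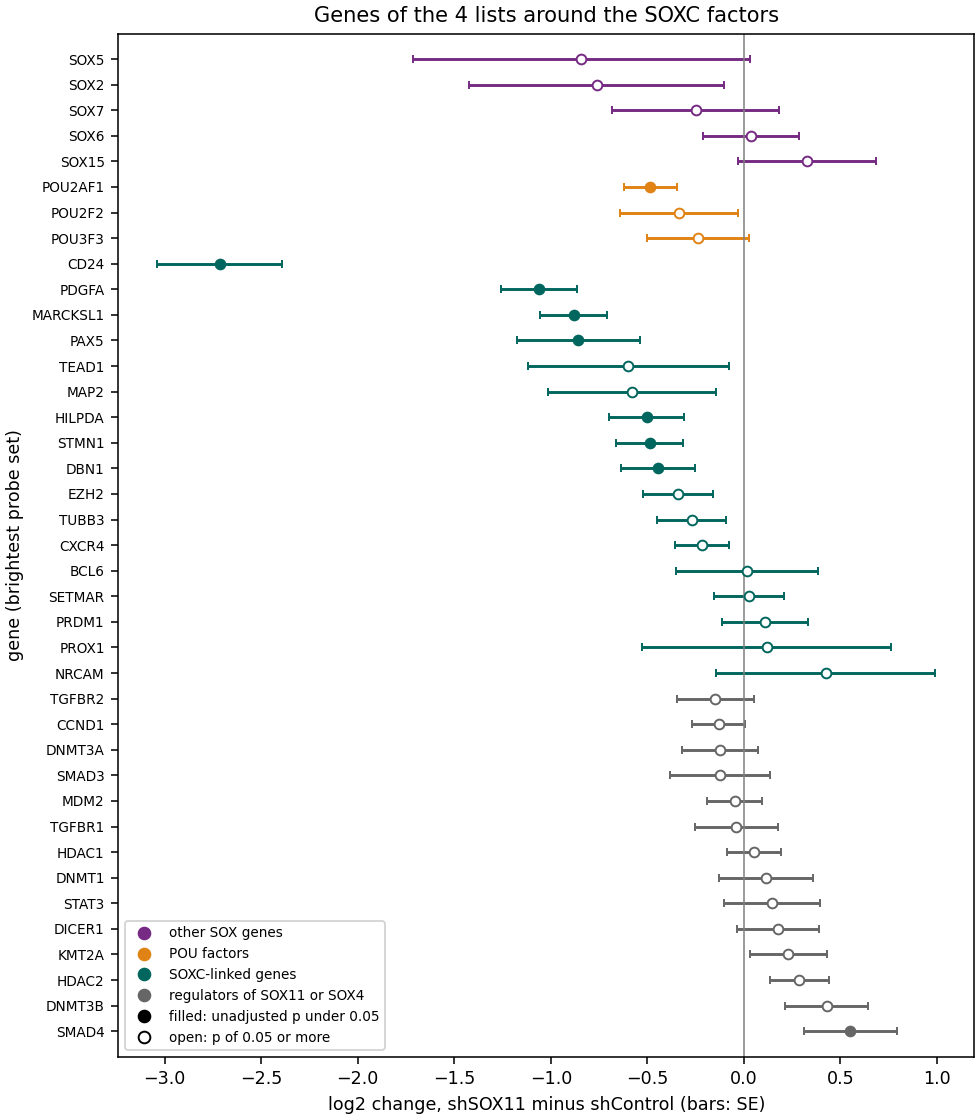
Log2 change (shSOX11 minus shControl) of the 39 tested genes of the 4 lists, each at its brightest probe set, with bars for the standard error and filled points for an unadjusted limma p under 0.05. Of the 9 filled points 8 are lower on shSOX11 arrays, 7 of them SOXC-linked genes, and 1 (SMAD4) is higher.

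The genes whose pattern over the 4 arrays lay nearest to that of SOX11 were found by the mean absolute difference of log2 signals, each gene taken relative to its own shControl mean. The nearest 5 were SCN8A, SIGLEC15, PPM1N, LINC00208 and GNA12, at distances of 0.05, 0.08, 0.09, 0.09 and 0.10. The 4 nearest were dim, with signals under the threshold of 24.8 on both shSOX11 arrays. They passed the filter through the shControl arrays alone, which fixes their direction. By mean signal they were at least 1.35-fold, 1.90-fold, 1.24-fold and 1.59-fold lower, a bound that takes no account of error. Their log2 changes had SEs of 0.62, 0.44, 0.66 and 0.52. The unadjusted limma p-values were 0.088, 0.035, 0.121 and 0.061. GNA12, a G protein alpha subunit, was the 1 of the 5 above the threshold on all arrays. It read 291 and 369 on the shSOX11 arrays and 707 and 663 on the shControl arrays (log2 change -1.06, SE 0.19), and the other GNA12 probe set that passed was at -0.56. A likeness over 4 arrays in 2 groups is mostly a likeness in the group difference.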

How the data were processed

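Total RNA of 4 Z138 samples was hybridised with biotin label to 1 array each. The authors deposited 1 intensity for each probe set, a linear MAS5 signal; Affymetrix Expression Console and MAS5 are named in the submitters' processing notes. Versions and the scaling target were not given in the sources used here. MAS5 subtracts mismatch signals, which makes dim values noisy, and the number of arrays limits the precision. Signals were taken to log2 with no pseudocount and no further normalization. Probe sets were kept that exceeded 24.8, the overall median signal, on 2 or more arrays (28202, without the 62 array controls). Each was fitted on its own with limma 3.58.1 in R 4.3.3 (lmFit, eBayes with intensity trend, two-sided, Benjamini-Hochberg adjustment over all 28202, 2 residual degrees of freedom, 8.67 after moderation). The fit was tested on simulated arrays. Gene symbols came from the platform annotation, where 41091 probe sets had 1 symbol; a listed gene without such a probe set was not analysed here. Genes outside the SOXC group are given by their brightest kept probe set. Named were all SOXC probe sets, list genes with an unadjusted p under 0.05 or else the 3 with the smallest p, and the 5 nearest patterns. EZH2, TUBB3, TEAD2, DCX, BCL6, PRDM1, CXCR4, STAT3, CCND1, POU2F2 and POU3F3 were added after their values were seen. The members and lists were chosen with earlier results of these data known. Alternatives were other scalings, filters at the 35th or the 65th percentile or no filter, a pseudocount of 32, limma without trend or robust, 1 probe set per gene, no _x_at probe sets, an adjusted threshold of 0.10, and each array left out.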

Additional observations from a re-analysis of the deposited data

How the results depend on the processing

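No paired analysis was possible because the groups share only 1 construct number, which names different hairpins. With all 4 arrays, the log2 change of the brightest SOX11 probe set stayed between -1.24 and -1.15 over 10 alternatives, with limma adjusted p from 0.129 to 0.691, and that of the brightest SOX4 probe set between -0.10 and -0.02. With 1 array left out they lay between -1.24 and -1.23 and between -0.11 and -0.09. The SOX12 probe set 204432_at turned to 0.052 with median centring and lay between -0.18 and 0.11 with 1 array left out. With 1 array left out, 228358_at lay between -0.34 and 0.10, 1567906_at between -0.53 and 0.084 and 213665_at between -0.26 and 0.38, so no direction holds for these dim probe sets. Within arrays, the shift of SOX11 against SOX4 stayed between -1.37 and -1.06 and that against SOX12 between -1.44 and -1.07. The count of probe sets past the adjusted p in limma was 0 in place of 1 with median centring (2544 at an unadjusted p under 0.05), the 65th percentile filter (1979), no filter (3726), no intensity trend (2021), 1 probe set per gene (1001) or no _x_at probe sets (2206). With 1 array left out it ranged from 0 (without shControl.1 or shControl.2, with 869 and 1098 at an unadjusted p under 0.05) to 1585 (without shSOX11.1, 6147), with 200 without shSOX11.3 (3670). Over all 28202 probe sets, 2329 had an unadjusted limma p under 0.05. At their brightest probe set, 921 of all 11938 genes (7.71%) had one. Of the 39 list genes, 9 did, also at their brightest probe set. There were 4 without the intensity trend, 3 without either shControl array, 15 without shSOX11.1 and 11 without shSOX11.3, and the counts over all probe sets are those given above for each setting. The cause of these differences was not tested.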
